A study of Mus musculus with 8 samples.

Results

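The replication-dependent histone genes of chromosome 13, known as histone cluster 1, were examined in regulatory T cells of pregnant mice. Members were the rows of the value table whose platform annotation gives 1 gene of the cluster, formerly named with the prefix Hist1h. This gave 21 genes of the 6986 genes in the table. They were 5 of the 6 linker histone H1 genes of the cluster in the RefSeq gene table, 4 of 14 H2A genes, 6 of 15 H2B genes and 6 of 11 H4 genes. None of the 9 H3 genes had a probe set of its own. The H2A pseudogene H2af-ps2, once named Hist1h2al, lies outside the cluster and was not counted. The 55 genes counted over the classes include 1 other gene that the RefSeq gene table marks as a pseudogene. Each member had 1 probe set, so no choice between probe sets was needed.

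The core histones H2A, H2B, H3 and H4 form the protein spool around which DNA is wound, and H1 binds the linker DNA between spools. The replication-dependent genes are transcribed mainly in S phase, when new DNA has to be packaged. Their mRNAs end in a stem-loop instead of a poly(A) tail, and they are degraded when replication stops. In bulk samples such as these, fewer replicating cells and less histone RNA per cell cannot be told apart.

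Flow cytometry was used to sort CD4+CD25+ lymphocytes from the para-aortic nodes, which receive the lymph of the uterus, of pregnant mice on day 9.5 post coitum. One group was 4 arrays from C57BL/6 mice labelled IL10+/+, and the other was 4 arrays from mice labelled IL10-/- and back-crossed to the same colony, which lack the cytokine interleukin 10. An array measured 1 pool of RNA, made from 2 to 4 mice, and the pools are described as biological replicates. The drinking water of the IL10-/- mice held oxytetracycline, an antibiotic, at 2 mg/ml. The labels state none for IL10+/+ mice, so antibiotic and genotype cannot be told apart. Balb/c males are named among the animals, without a statement that they were the sires. The comparison asks how this T cell fraction differs when interleukin 10 is missing.

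Median log2 values of the 6986 genes lay between 6.97 and 7.12 in the 8 arrays. IL10-/- replicate 2 and IL10+/+ replicate 4 stood apart, with interquartile ranges of 2.15 and 2.17 against 2.32 to 2.58 in the other arrays. The widest range, 2.58, was that of IL10+/+ replicate 2. On the first principal component, the main axis of variation between arrays (31.1% of the variance), the pair lay at 16.6 and 17.8. IL10+/+ replicate 2 lay far on the other side at -13.3, and the remaining arrays between -5.58 and -2.72. The sort used surface CD4 and CD25. Foxp3, Il2ra, Cd4 and Cd3e, which are markers of regulatory T cells or of T cells more widely, were not analysed here. Here and below, a listed gene is called measured if the value table held a probe set annotated to that gene alone. Other listed genes may be read by probe sets annotated to several genes or to none. Of 15 T cell and regulatory T cell markers, 6 were measured (Ctla4, Icos, Ikzf2, Il7r, Ptprc and Themis), and their summed log2 level was 67.8 to 68.3 in IL10-/- and 67.9 to 68.6 in IL10+/+ arrays. For 6 measured B cell markers the sums were 43.9 to 45.3 and 43.1 to 44.6, highest in IL10-/- replicate 2 and lowest in IL10+/+ replicate 4. For 3 macrophage markers they were 21.0 to 23.5 and 21.9 to 22.3, with the highest sum in IL10-/- replicate 2. The 3 plasma cell markers summed to 22.9 to 24.3 and 22.7 to 23.9. The 5 stroma and vessel markers summed to 32.8 to 33.8 and 33.3 to 34.2, with the highest sums of each group in the 2 arrays that stood apart. The only measured neutrophil marker, Cxcr2, was also highest of each group there, at 7.34 and 7.62. The only measured erythroid marker, Slc4a1, was highest in IL10-/- replicate 2 (7.27) and, among IL10+/+ arrays, in replicate 3 (7.14). The part of other cells in the histone values was not tested.

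Sequence upstream of 5 members is shown first, because these genes bracket the pattern described after it. H1f5 and H2ac15 had the widest swings between arrays, H4c12 had the highest log2 values, H2bc12 had the largest difference among H2B genes, and H1f6, which encodes the testis H1, had the largest negative difference among H1 genes. Each line gives the 140 bases before the annotated start, from RefSeq on GRCm38.p6. Capitals mark matches on either strand to CCAAT, to TATAAA, to the octamer ATTTGCAT of H2B promoters, to the E2F-type motifs TTTGGCGC and TTTCGCGC, and to AAACACA, an element known from H1 promoters. AAACACA was added after the sequences had been seen.
H1f5, chr13:21780626-21780765, minus strand: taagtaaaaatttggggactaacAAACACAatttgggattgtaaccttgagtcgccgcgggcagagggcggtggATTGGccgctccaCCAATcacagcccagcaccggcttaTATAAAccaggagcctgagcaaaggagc
H2ac15, chr13:21753913-21754052, minus strand: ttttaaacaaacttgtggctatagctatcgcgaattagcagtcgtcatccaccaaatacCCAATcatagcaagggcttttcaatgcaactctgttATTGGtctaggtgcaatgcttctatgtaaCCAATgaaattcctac
H4c12, chr13:21750554-21750693, minus strand: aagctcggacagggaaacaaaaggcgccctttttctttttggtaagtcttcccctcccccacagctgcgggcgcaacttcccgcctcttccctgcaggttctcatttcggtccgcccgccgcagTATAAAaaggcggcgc
H2bc12, chr13:22035681-22035820, plus strand: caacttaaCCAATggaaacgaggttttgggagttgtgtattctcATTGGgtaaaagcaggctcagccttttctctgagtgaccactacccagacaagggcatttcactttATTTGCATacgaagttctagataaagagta
H1f6, chr13:23695671-23695810, plus strand: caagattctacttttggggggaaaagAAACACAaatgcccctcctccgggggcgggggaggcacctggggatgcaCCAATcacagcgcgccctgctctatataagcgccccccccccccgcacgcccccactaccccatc

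All 21 members matched a promoter window in the RefSeq table, 250 bases before to 50 after the start. CCAAT occurred on either strand in 16 of the 21 windows, against 37.4% of all 32851 windows of that length. By class, it occurred in all 5 H1, all 4 H2A and all 6 H2B windows but in 1 of 6 H4 windows. TATAAA occurred in 14 of 21 (13.6% of all windows), and ATTTGCAT in 4 of 6 H2B and 2 of 4 H2A windows but in no H1 or H4 window (1.74% of all). TTTCGCGC occurred in 4 of 21 (0.323% of all) and TTTGGCGC in none (0.514% of all). AAACACA occurred in 4 of 5 H1 windows, in 3 of the other 16 and in 7.18% of all windows. H2A and H2B genes of the cluster often lie head to head, so some of these windows overlap and their matches are counted for both genes. A match describes the letters only.

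No histone gene passed the test for a difference between the genotypes. By limma with Benjamini-Hochberg adjustment over all 6986 genes, 0 of 21 members had an adjusted p under 0.05 (0.0286% of all genes did), and each had an adjusted p of 0.999. At an unadjusted p under 0.05 there was 1 of 21 members, H4c8 (4.78% of all genes). In 0 of 21 members did the 2 groups not overlap, a state found in 2.92% of all genes. The IL10-/- mean was the higher one in 14 of 21 members, against 50.8% of all genes. The median log2 difference, IL10-/- minus IL10+/+, was 0.077 over the members and 0.0025 over all genes. The members' median was 0.29 without the pair of arrays that stood apart and 0.19 with array weights. Without the pair of arrays that stood apart, 15 of 21 members were higher in IL10-/- (51.7% of all genes).

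Among the 21 members, the larger differences ran in 1 direction. This did not hold for probe sets shared between genes, described below, where an H4 signal differed by -0.68 and an H2B signal by 1.30. Of the 21 members, 5 (23.8%) had a log2 difference of at least 0.58 toward IL10-/- (0.830% of all genes), and 0 had one of that size toward IL10+/+ (0.243% of all genes). They were H1f5, H1f1, H2bc12, H4c9 and H4c8, of which H1f1 and H4c8 were named after their values were seen. An SD of at least 0.5 over the 8 arrays was seen in 7 of 21 members, against 2.30% of all genes. This SD includes any difference between the groups. The count of 5 moved with single arrays, in a check chosen after seeing the data. It fell to 2 when IL10-/- replicate 3 was left out (0.773% of all genes) and to 2 for IL10-/- replicate 4 (0.802%). It was 3 when IL10+/+ replicate 1 was left out (0.930%) and 3 for IL10+/+ replicate 4 (0.887%). Leaving out IL10-/- replicate 1 gave 4 (1.13%), IL10-/- replicate 2 gave 6 (0.988%), IL10+/+ replicate 2 gave 4 (1.47%) and IL10+/+ replicate 3 gave 4 (0.787%). With both arrays that stood apart left out, 6 members were that much higher in IL10-/- (0.930% of all genes), 0 that much lower (0.372%), and 6 had an SD of at least 0.5 over the 6 arrays (1.83%).

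**Figure D1:**
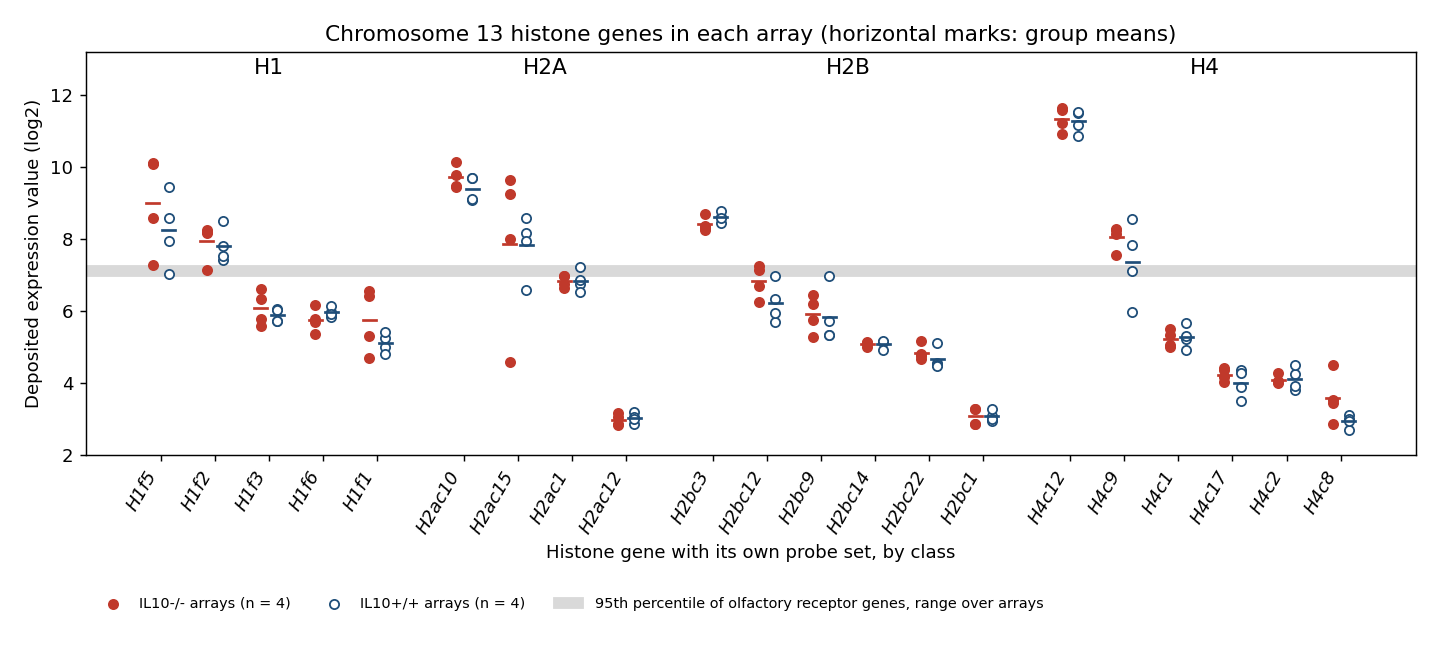
Deposited log2 values (vertical axis) of the 21 histone genes with a probe set of their own, by class; filled points are the 4 IL10-/- arrays, open points the 4 IL10+/+ arrays and short horizontal marks the group means. The grey band spans the 95th percentile of 230 olfactory receptor genes in the 8 arrays; the groups overlap in every gene, and H1f5 and H2ac15 spread most.

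Olfactory receptor genes, which serve smell in the nose, served as a reference for dim signal, since no detection call was at hand. Their 95th percentile lay between 6.97 and 7.26 in the 8 arrays. The histone genes H2ac10, H2bc3 and H4c12 lay above it in all 8 arrays. H1f2 and H1f5 did so in 7 arrays, H2ac15 and H4c9 in 6, H2bc12 in 2 and H2ac1 in 1. The other 12 members lay below it in every array, so differences among them concern dim probe sets. They include H1f1 and H4c8, which are among the 5 members with the larger differences. Log2 values of different probe sets cannot be read as the order of transcript levels.

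Among the linker histones, H1f5, the gene of H1.5, had the highest values and the largest difference. Its log2 values were 8.58, 7.27, 10.08 and 10.11 in IL10-/- replicates 1 to 4 and 7.95, 9.45, 8.59 and 7.04 in IL10+/+ replicates 1 to 4. The arrays at the top were IL10-/- replicates 3 and 4 and IL10+/+ replicate 2, and those at the bottom were the 2 arrays that stood apart, 1 of each genotype. The IL10-/- mean was 9.01 ± 1.36 and the IL10+/+ mean 8.26 ± 1.02 (SD, n = 4 each). They differed by 0.75 (SE 0.64) or 1.69-fold, with exact two-sided permutation p = 0.457. The difference was 0.35 without IL10+/+ replicate 4, 0.40 without IL10-/- replicate 3, 0.39 without IL10-/- replicate 4, 1.15 without IL10+/+ replicate 2, 1.33 without IL10-/- replicate 2, and 0.93 without both. H1f1, the gene of H1.1, shared the high values of IL10-/- replicates 3 and 4, at 6.56 and 6.42, with all other arrays between 4.69 and 5.41, and differed by 0.63 (SE 0.36). Its difference was 0.36 without IL10-/- replicate 3, 0.41 without IL10-/- replicate 4 and 0.99 without IL10-/- replicate 2.

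The other H1 genes moved less. H1f2, the gene of H1.2, had means of 7.95 and 7.81 in IL10-/- and IL10+/+, a difference of 0.13 (SE 0.29). H1f3, the gene of H1.3, differed by 0.19 (SE 0.21). H1f6 encodes the H1 of developing sperm cells and read 5.37, 6.17, 5.69 and 5.78 in IL10-/- and 5.97, 6.13, 5.84 and 5.92 in IL10+/+. It was the only H1 gene with a negative difference, -0.21 (SE 0.16, exact permutation p = 0.286), and its groups overlapped. Its difference was -0.082 without IL10-/- replicate 1 and -0.35 without IL10-/- replicate 2. Averaged over the 5 H1 genes, the class stood at 6.91 ± 0.60 in IL10-/- and 6.61 ± 0.27 in IL10+/+ (SD over 4 arrays each), a difference of 0.30 with 4 of 5 genes positive. It was 0.13 without IL10-/- replicate 3, 0.14 without IL10-/- replicate 4, 0.19 without IL10+/+ replicate 4 and 0.53 without IL10-/- replicate 2.

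H2A genes gave no common direction. H2ac10, the brightest, read 9.44, 9.48, 10.15 and 9.79 in IL10-/- and 9.09, 9.70, 9.71 and 9.11 in IL10+/+. Its difference was 0.31 (SE 0.20, exact permutation p = 0.229), and IL10-/- replicates 3 and 4 lay above every other array. It was 0.17 without IL10-/- replicate 3. H2ac15 had the widest range of the cluster, with 7.99, 4.58, 9.63 and 9.25 in IL10-/- and 8.18, 8.60, 7.95 and 6.59 in IL10+/+. Its lowest arrays were again the 2 that stood apart, and IL10-/- replicate 2 lay below IL10-/- replicate 3 by 5.05 on the log2 scale. The group means nearly coincided, at 7.86 ± 2.30 and 7.83 ± 0.87 (SD, n = 4 each), a difference of 0.036 (SE 0.92, exact permutation p = 0.971). It became 0.72 without both arrays that stood apart and turned negative without IL10-/- replicate 3 (-0.55), IL10-/- replicate 4 (-0.43), IL10+/+ replicate 4 (-0.38) or IL10-/- replicate 1 (-0.0059).

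H2ac12 lay near the floor of the table at 3.16, 2.85, 2.85 and 3.05 in IL10-/- and 3.20, 2.85, 3.05 and 3.00 in IL10+/+, with a difference of -0.048 (SE 0.12, exact permutation p = 0.686) and overlapping groups. H2ac1, which encodes the testis H2A variant TH2A, differed by -0.0045 (SE 0.15) and ranged from 6.52 to 7.22 over the arrays. The H2A class mean was 6.85 ± 0.63 in IL10-/- and 6.77 ± 0.20 in IL10+/+ (SD over 4 arrays each), a difference of 0.074 with 2 of 4 genes positive. It was 0.36 without IL10-/- replicate 2 and -0.11 without IL10-/- replicate 3, and also below 0 without IL10-/- replicate 4 (-0.047) and without IL10+/+ replicate 4 (-0.024).

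Among H2B genes, H2bc12 differed most. It read 6.70, 6.25, 7.25 and 7.14 in IL10-/- and 5.69, 6.96, 5.96 and 6.33 in IL10+/+. IL10-/- replicates 3 and 4 were highest and IL10+/+ replicate 2 came next, so the groups overlapped. The difference was 0.60 (SE 0.28) or 1.52-fold, with exact permutation p = 0.143, and 0.42 without IL10+/+ replicate 1. H2bc3 was the brightest H2B gene and ran the other way, at 8.36, 8.71, 8.26 and 8.32 in IL10-/- and 8.45, 8.62, 8.77 and 8.58 in IL10+/+. Its difference was -0.19 (SE 0.12, exact permutation p = 0.143). Unlike H1f5 and H2ac15, it was not low in the arrays that stood apart, where IL10-/- replicate 2 had its second highest value.

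The remaining H2B genes were dim. H2bc9 differed by 0.077 (SE 0.36), H2bc22 by 0.18 (SE 0.16), H2bc14 by 0.0049 (SE 0.098) and H2bc1, the gene of the testis variant TH2B, by -0.0051 (SE 0.13). H2bc1 ranged over only 0.42 and H2bc14 over 0.25 between the highest and lowest array. The H2B class mean was 5.70 ± 0.16 in IL10-/- and 5.59 ± 0.17 in IL10+/+ (SD over 4 arrays each), a difference of 0.11 with 4 of 6 genes positive.

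H4 genes all encode the same protein. H4c12, the member with the highest log2 values, read 11.22, 10.92, 11.66 and 11.59 in IL10-/- and 11.16, 11.50, 11.54 and 10.88 in IL10+/+. As for H1f5, the lowest arrays were IL10-/- replicate 2 and IL10+/+ replicate 4. The difference was 0.075 (SE 0.19, exact permutation p = 0.686), and it fell below 0 without IL10+/+ replicate 4 (-0.056), IL10-/- replicate 3 (-0.029) or IL10-/- replicate 4 (-0.0063). H4c9 read 8.29, 8.13, 7.55 and 8.25 in IL10-/- and 5.97, 8.56, 7.12 and 7.84 in IL10+/+. Its difference of 0.69 (SE 0.44, exact permutation p = 0.286) became 0.22 without IL10+/+ replicate 1, the lowest array, and 1.08 without IL10+/+ replicate 2, the highest.

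H4c8 was the member with the smallest unadjusted p (0.0432; limma, adjusted p = 0.999), and its exact permutation p was 0.114. It differed by 0.63 (SE 0.28), but lay at 3.57 ± 0.68 and 2.94 ± 0.18 (SD, n = 4 each), below the median of the olfactory receptor genes in every array. Without IL10-/- replicate 1, which read 4.49, the difference was 0.33. H4c1 read 4.99, 5.05, 5.35 and 5.51 in IL10-/- and 5.68, 5.22, 5.30 and 4.92 in IL10+/+, a difference of -0.053 (SE 0.17, exact permutation p = 0.800) with overlapping groups. H4c17 differed by 0.23 (SE 0.19) and H4c2 by -0.029 (SE 0.15). The H4 class mean was 6.09 ± 0.15 in IL10-/- and 5.83 ± 0.11 in IL10+/+ (SD over 4 arrays each), a difference of 0.26 with 4 of 6 genes positive.

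**Figure D2:**
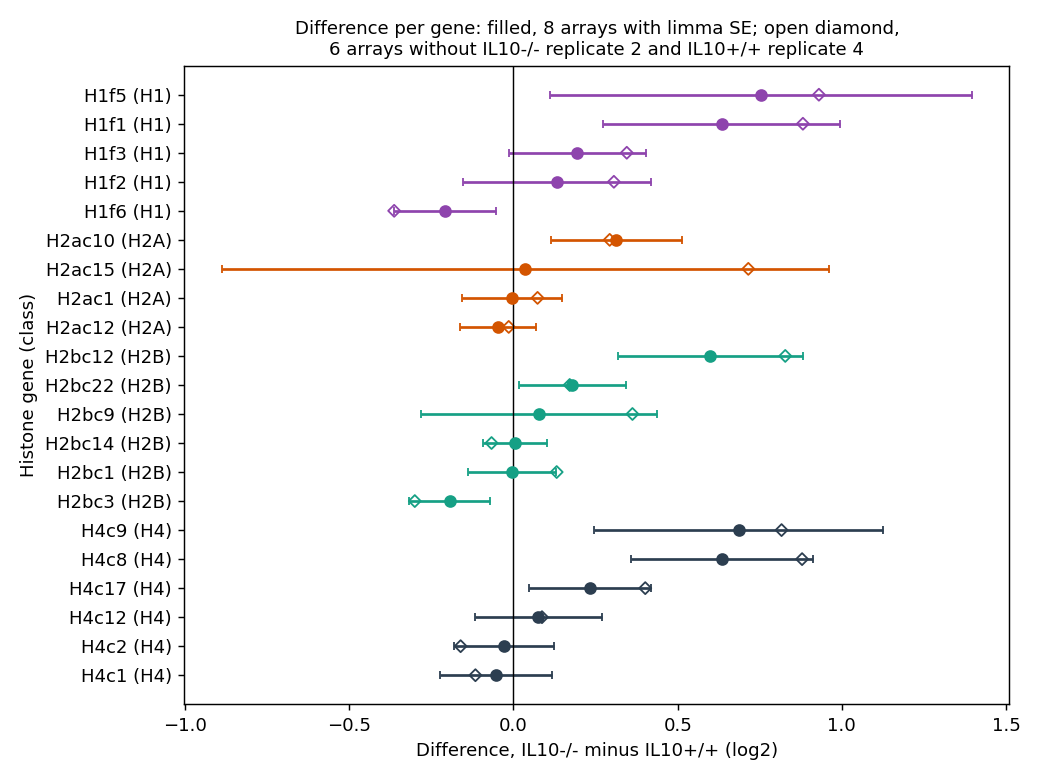
Log2 difference, IL10-/- minus IL10+/+ (horizontal axis), of each histone gene, ordered by class; filled points with bars are the 8-array values with limma SE, and open diamonds the differences over the 6 arrays without IL10-/- replicate 2 and IL10+/+ replicate 4. H1f5, H1f1, H2bc12, H4c9 and H4c8 lie at 0.60 or above, and H2ac15 has the widest bar.

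H1f1, H1f5, H2ac15, H2bc1, H2bc22 and H4c12 had their highest value in IL10-/- replicate 3 or 4. Their lowest value was in IL10-/- replicate 2 or IL10+/+ replicate 4. Of these genes, H1f1, H2bc1 and H2bc22 lay below the olfactory receptor reference in every array. IL10-/- replicate 2 or IL10+/+ replicate 4 was the lowest array for 9 of 21 members, among them H1f1, H1f2, H1f5, H2ac15 and H4c12 (25.7% of all genes). IL10-/- replicate 3 or 4 was the highest array for 10 of 21, among them H1f1, H1f3, H1f5, H2ac10, H2ac15, H2bc12 and H4c12 (17.9% of all genes). These pairs of arrays were singled out after the values were seen. Other members that varied widely had other patterns. H4c9 was highest in IL10+/+ replicate 2 and lowest in IL10+/+ replicate 1, H4c8 was highest in IL10-/- replicate 1 and lowest in IL10+/+ replicate 2, and H2bc12 was lowest in IL10+/+ replicate 1. The highest array was IL10-/- replicate 2 for H1f6, IL10+/+ replicate 4 for H2bc9 and H2ac1, and IL10+/+ replicate 3 for H2bc3. The compressed range of the arrays that stood apart moved with the low histone values, and its part in them was not tested.

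Genes of S phase and mitosis give the setting of replication in the same arrays. Of 45 S phase and DNA replication genes listed, 9 were measured, and their mean was 8.43, 8.36, 8.49 and 8.76 in IL10-/- and 8.15, 8.84, 8.22 and 8.09 in IL10+/+. IL10+/+ replicate 2 and IL10-/- replicate 4, both high for H1f5, were the highest, and IL10+/+ replicate 4, low for H1f5, was the lowest. IL10-/- replicate 2, also low for H1f5, lay at 8.36, above IL10+/+ replicates 1, 3 and 4. Positive differences were found for 7 of 9 (50.8% of all genes), with a median of 0.22. They included Rrm2, a ribonucleotide reductase subunit, at 0.43 (SE 0.28), and the primase gene Prim1 at 0.52 (SE 0.26). E2f7, a repressor of E2F target genes, differed by 0.33 (SE 0.11; limma, adjusted p = 0.777), with groups that did not overlap, as in 2.92% of all genes. The helicase subunit gene Mcm6 stood at -0.23 (SE 0.13).

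For mitosis, 13 of 40 listed genes were measured, and all 13 had positive differences (50.8% of all genes), with a median of 0.47. Their mean was 8.22, 8.23, 8.50 and 8.68 in IL10-/- and 7.90, 8.46, 7.89 and 7.63 in IL10+/+, so IL10-/- replicate 2, lowest of its group for H1f5 and H2ac15, lay above 3 of the 4 IL10+/+ arrays for mitosis genes. Hmmr, a spindle-associated protein gene, differed by 0.68 (SE 0.23) and the survivin gene Birc5 by 0.48 (SE 0.39). None of the genes of either list passed limma's test over all genes. A higher mitosis list in IL10-/- was already known from earlier results of these data and is no independent support for the histone differences.

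**Figure D3:**
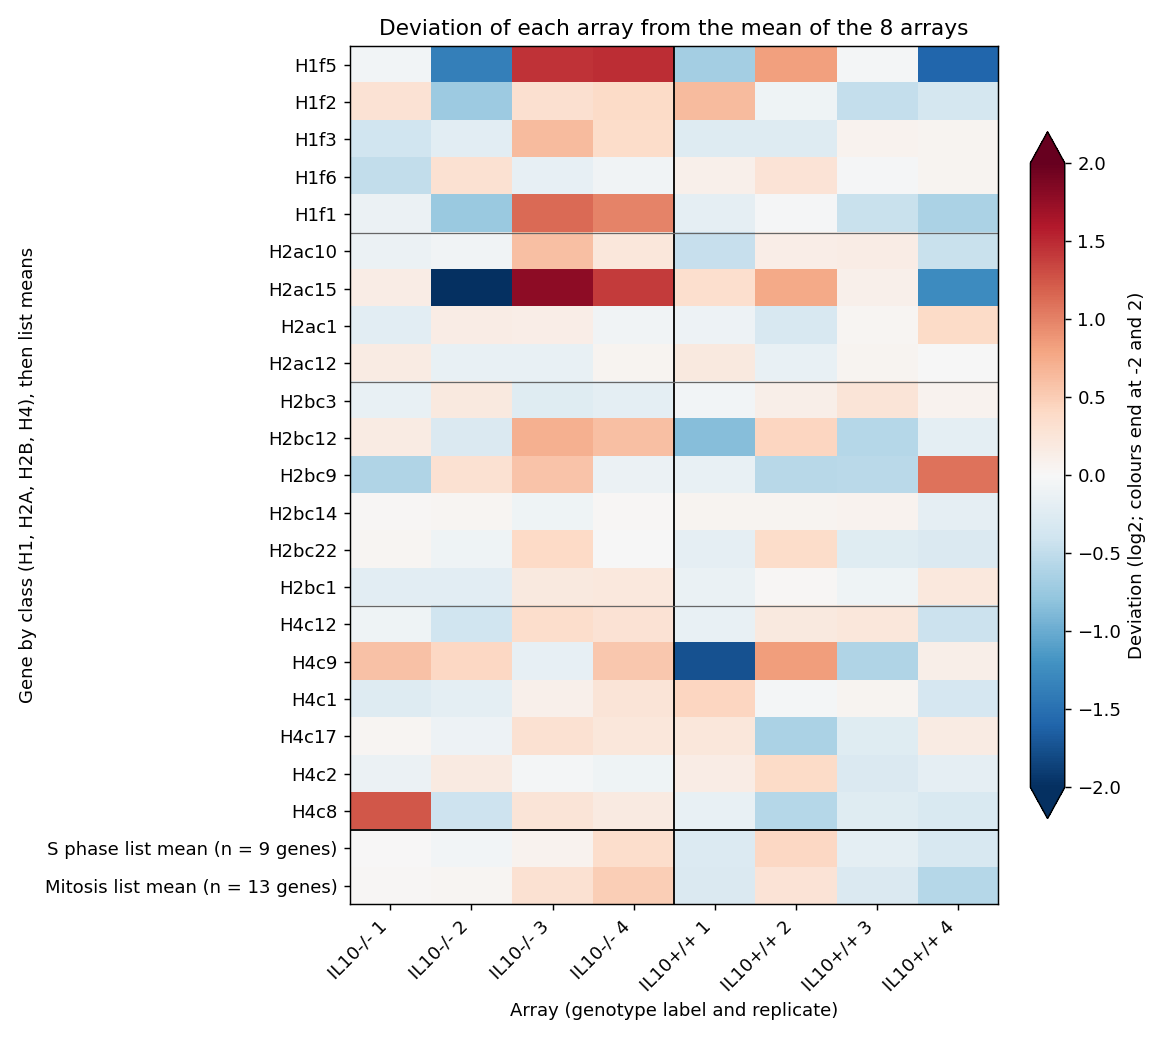
Deviation of each array (columns, by genotype label and replicate) from the gene's mean over the 8 arrays, in log2 units, for the 21 histone genes by class and for the means of the S phase (n = 9 genes) and mitosis (n = 13 genes) lists. Red is above and blue below the mean, with colours ending at 2 in either direction; H1f5 and H2ac15 are blue in IL10-/- replicate 2 and IL10+/+ replicate 4 and red in IL10-/- replicates 3 and 4 and IL10+/+ replicate 2.

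The machinery that makes histone mRNA and deposits histones showed small differences. Of 30 genes of histone mRNA transcription and processing, 9 were measured, 4 were positive (50.8% of all genes), and the median was -0.050. Lsm11, a part of the U7 snRNP that guides cutting of the histone mRNA end, differed by 0.24 (SE 0.14). The cleavage factor gene Cpsf2 differed by 0.23 (SE 0.096), and its groups did not overlap, as in 2.92% of all genes. Cdk2, the kinase that switches on histone transcription through Npat, stood at -0.21 (SE 0.25). Of 26 chaperone and deposition genes, 8 were measured, 6 were positive (50.8% of all genes), and the median was 0.10. The H3-H4 chaperone gene Asf1a led at 0.30 (SE 0.12; limma, adjusted p = 0.953). None of these genes passed over all genes.

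Histones outside the cluster and genes lying within it were set beside the members. Of 26 histone variants and genes of other clusters, 4 were measured and all were positive (50.8% of all genes) with a median of 0.068. Among them, H2az2, which encodes an H2A.Z variant made outside S phase too, had means of 10.16 ± 0.13 and 9.97 ± 0.12 (SD, n = 4 each), a difference of 0.19 (SE 0.11; limma, adjusted p = 0.999), and its groups did not overlap, as in 2.92% of all genes. Of 199 non-histone genes that the RefSeq table places between the first and last gene of the cluster, 52 were measured. Of these, 23 were positive (50.8% of all genes), and the median was -0.011. The largest differences were -0.53 for the vomeronasal receptor gene Vmn1r188 and -0.47 for Vmn1r215, and 0 of 52 passed over all genes. The mean of these neighbours varied between 4.57 and 4.68 over the arrays.

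Most genes of the cluster are nearly identical in sequence, and 32 further probe sets were annotated to several of them. Of these, 31 listed genes of 1 class and 1 listed H1 and H2B genes. Values were the same in every array for 2 pairs, which left 30 distinct signals. No single gene can be named from them, but they hold the only readings of H3. The 21 probe sets annotated to 1 gene may also read near-identical genes of the cluster. This cannot be settled without the probe sequences, so their gene names are those of the annotation. Of the H3 probe sets 5 of 9, and of the H4 probe sets 4 of 5, also list histone genes outside the cluster, so these values are not of the cluster alone. Of the 30, 19 had a positive difference (50.8% of all genes) and 0 had groups that did not overlap (2.92% of all genes). The lowest array was IL10-/- replicate 2 or IL10+/+ replicate 4 for 15 of 30 (25.7% of all genes).

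Some shared H2A, H2B and H4 signals had the array pattern of H1f5. A probe set listing 12 H2B genes read 11.16, 9.76, 11.89 and 12.38 in IL10-/- and 10.87, 11.97, 11.47 and 10.01 in IL10+/+. Another, listing 10 H2A genes, read 6.90, 3.67, 9.35 and 8.59 in IL10-/- and 6.79, 7.78, 7.11 and 4.58 in IL10+/+, a range as wide as that of H2ac15 or wider. In both, IL10-/- replicates 3 and 4 and IL10+/+ replicate 2 were the highest and the arrays that stood apart the lowest, with differences of 0.22 and 0.56. With 1 array left out these ran from -0.14 to 0.73 and from -0.18 to 1.72. In a probe set listing 6 H4 genes, too, these arrays were the highest and the lowest. It ran from 8.03 in IL10-/- replicate 3 to 5.85 in IL10-/- replicate 2. Its difference was 0.081, and -0.26 to 0.53 with 1 array left out. All of these probe sets were chosen after their values were seen.

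H3 was read by 9 shared probe sets, none of which lay above the olfactory receptor reference in all 8 arrays. Their mean was 4.74 ± 0.14 in IL10-/- and 4.70 ± 0.09 in IL10+/+ (SD over 4 arrays each), a difference of 0.045 with 5 of 9 positive. The H3 probe set with the largest negative difference, listing 4 genes, read 7.76, 7.10, 6.99 and 7.84 in IL10-/- and 7.79, 7.93, 8.46 and 7.56 in IL10+/+, a difference of -0.51. Over shared probe sets alone, the class difference was 0.17 for H2A (8 probe sets), 0.26 for H2B (7 probe sets) and -0.13 for H4 (5 probe sets). With 1 array left out in turn, these ran from -0.015 to 0.40 for H2A, from -0.033 to 0.45 for H2B and from -0.27 to 0.016 for H4, and H3 ran from -0.0059 to 0.10. The sign turned without IL10+/+ replicate 4 for H2A and H2B, without IL10-/- replicate 3 for H2A, without IL10-/- replicate 4 for H3 and without IL10-/- replicate 2 for H4. The H4 probe set with the largest negative difference listed 13 genes, 11 of them in the cluster, and differed by -0.68. Without IL10+/+ replicate 4, its highest array at 7.16, the difference was -0.25.

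**Figure D4:**
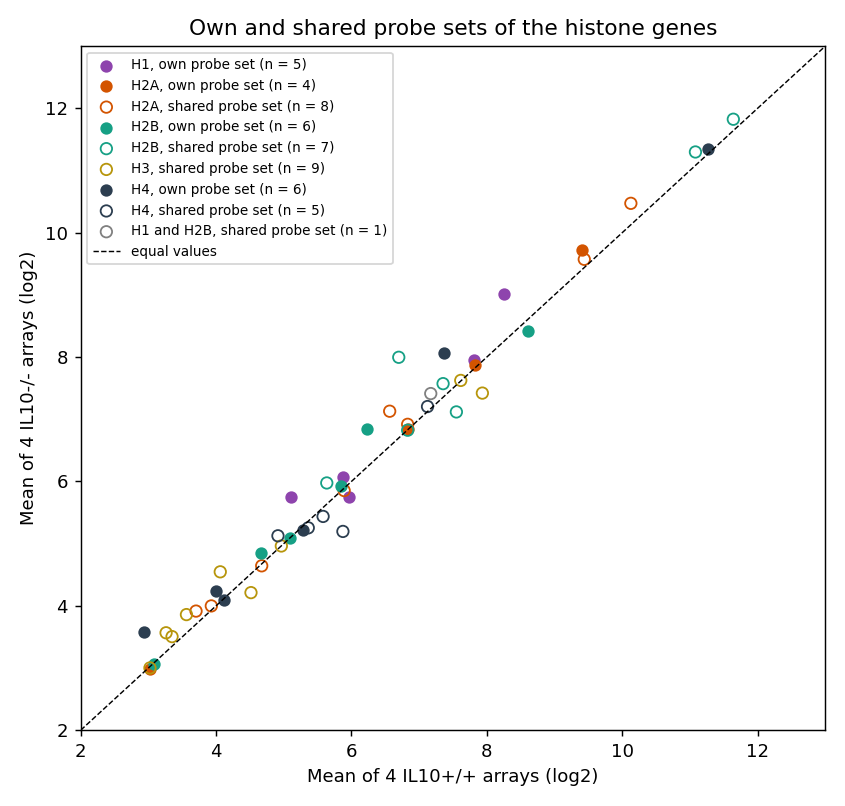
Mean of the 4 IL10+/+ arrays (horizontal axis) against mean of the 4 IL10-/- arrays (vertical axis), both log2, for the 21 genes with their own probe set (filled) and the 30 distinct shared signals (open), coloured by class. Points on the dashed line have equal means; most lie near it, and the H3 points are all below 8.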

How the data were processed

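RNA of 8 pools was amplified with the Ovation PicoSL system and hybridised to Affymetrix Mouse Gene 2.0 ST arrays, per the labels' protocols. The authors deposited log2 values. The design text gives Partek as the software and names RMA for background, an adjustment for GC content and averaging over probes. Affymetrix Expression Console appears too, per the submitters' processing notes. Their versions and the build behind the probe sets: not given in the sources used here.

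Of 16378 probe sets, 7358 had 1 annotated gene, 456 several and 8564 none. Symbols were updated by Entrez identifier to RefSeq GRCm38.p6 names (7310 matched), and the brightest probe set per gene was kept, leaving 6986 genes. Genotypes were compared with limma 3.58.1 in R 4.3.3 (lmFit and eBayes, no covariate, Benjamini-Hochberg adjustment over all genes, threshold 0.05), a script tested on simulated data. Exact two-sided permutation tests over 70 assignments cannot give p below 0.0286; they were computed for all 21 members and printed for those described in full. Lists are described by counts and medians only. The members and lists were chosen with earlier results of these data known. Values in every array were given for the brightest member and those with the largest positive and negative differences per class, for any without overlap between groups, and for the 3 with the largest SD in a group. Alternatives covered normalization, moderation, array weights, a filter on dim genes, probe set choice, the replicate block and arrays left out. An H3 class mean from single-gene probe sets could not be formed. The number of arrays limits the precision.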

Additional observations from a re-analysis of the deposited data

Results flagged for a closer look

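In groups of 4 arrays, 1 array lay far from the other 3 for 3 histone genes, by Dixon's criterion (gap over range above 0.829). The criterion was applied to 50 sets of 4 values, and chance flags about 1 in 20. H1f2 read 7.15 in IL10-/- replicate 2 against 8.17 to 8.26 in the other IL10-/- arrays. H2bc14 read 5.00 in IL10-/- replicate 3 against 5.12 to 5.13, a narrow group, and 4.91 in IL10+/+ replicate 4 against 5.14 to 5.16. H2bc22 read 5.12 in IL10+/+ replicate 2 against 4.47 to 4.57.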

How the results depend on the processing

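Under 17 other settings, 0 histone genes passed limma's adjusted threshold, of 21 tested or, with the filter on dim genes, of 15. At an unadjusted p under 0.05 there was 1, H4c8, in the reported fit. The members with positive differences numbered 11 to 17 with 1 array left out and 13 to 15 in the other settings that tested all 21. With the filter on dim genes there were 11 of 15. With 1 array left out, the members' median difference ran from 0.018 to 0.24, and the class differences from 0.13 to 0.53 (H1), -0.11 to 0.36 (H2A), 0.042 to 0.17 (H2B) and 0.22 to 0.33 (H4). Adding shared probe sets, an alternative chosen after seeing the data, moved H4 to 0.083, H2A to 0.14 and H2B to 0.19. Of all genes, 2 passed in the reported fit, 1 to 4 with 1 array left out, 3 with a trended and robust prior, and 1 with array medians subtracted, array weights, all probe sets, the replicate block or the pair of arrays left out. Signs turned for genes near 0: H2bc14 to -0.051 (quantile normalization), -0.012 (array medians), -0.014 (array weights) and -0.067 (without the pair), H2bc1 to 0.047 (array weights) and 0.13 (without the pair), and H2ac1 to 0.073 (without the pair); the cause was not tested. With 1 array left out, the sign changed within the ranges of H1f2 (-0.0021 to 0.40), H2ac1 (-0.11 to 0.12), H2ac12 (-0.11 to 0.011), H2ac15 (-0.55 to 1.13), H2bc1 (-0.077 to 0.064), H2bc14 (-0.055 to 0.034), H2bc9 (-0.10 to 0.45), H4c1 (-0.17 to 0.081), H4c12 (-0.056 to 0.22) and H4c2 (-0.13 to 0.096, and -0.16 without the pair). The lowest adjusted p of any member under any setting was 0.466 (limma, H2bc12). An H3 class mean had no single-gene probe set and no value.
No pairing of the arrays by replicate number was seen in correlations across genes, which cannot exclude one. The highest correlation, 0.46, was between the 2 arrays that stood apart, IL10-/- replicate 2 and IL10+/+ replicate 4. Deviations of same-numbered arrays correlated across genes at 0.053, -0.32, 0.027 and -0.19, and no IL10-/- array correlated best with its own number. With the replicate block 1 gene passed.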

Other observations

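A pair of shared H2B probe sets, annotated to the same 3 genes, had differences of opposite sign. The first read 8.18, 7.51, 7.87 and 8.41 in IL10-/- replicates 1 to 4 and 8.52, 6.21, 6.57 and 5.48 in IL10+/+ replicates 1 to 4, a log2 difference of 1.30 (exact two-sided permutation p = 0.143). The second read 7.39, 6.69, 6.44 and 7.94 in IL10-/- and 8.92, 8.33, 7.82 and 5.13 in IL10+/+, a difference of -0.43 (exact two-sided permutation p = 0.686). The second difference was 0.024 without IL10+/+ replicate 1 and -1.24 without IL10+/+ replicate 4, so its sign rests on 1 array, while the first stayed between 0.89 and 1.91 with 1 array left out. Both were highest in IL10+/+ replicate 1 and lowest in IL10+/+ replicate 4. The pair was chosen after its values were seen.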
